A study of Mus musculus with 28 samples.

Results

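The comparison described here is that of DNMT TKO with wild-type cells where KAP1 was not depleted. It uses the 6 RNA-seq libraries that carried the empty hairpin vector (shEmpty), 3 from DNMT TKO cells and 3 from wild-type (WT) cells, of 28 samples in the series. All 6 were chosen by genotype and hairpin alone. The cells were J1 mouse embryonic stem (ES) cells, a male 129S4/SvJae line, kept on gelatin in serum-free N2B27 medium with 2i and LIF, which holds ES cells in the naive state. DNMT TKO cells are J1 cells in which the 3 DNA methyltransferase genes Dnmt1, Dnmt3a and Dnmt3b are disrupted. Both genotypes were transduced with the empty pLKO vector, selected with 4 µg/mL puromycin and collected after 5 days, so the controls carried vector and drug as well. The study describes its replicates as independent experiments, but each genotype was 1 line, and what differs between the lines for other reasons cannot be told apart from the mutations. Where other groups enter, they are the same lines with a Kap1 hairpin (3 DNMT TKO and 3 WT libraries) and TET TKO cells with shEmpty (2 libraries), which lack Tet1, Tet2 and Tet3. The study obtained the TET TKO line from a different group than the DNMT TKO line. Its line background and its mutations cannot be told apart either.

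DNMT1 copies methylation to the new strand after replication, and DNMT3A and DNMT3B place it on unmethylated CpG sites. Methylation at promoters is best known for silencing germline genes, imprinted alleles and transposable elements (TEs). In ES cells many endogenous retroviruses (ERVs) are also silenced by KRAB zinc finger proteins, which recruit KAP1 (encoded by Trim28) and through it SETDB1, the enzyme that writes H3K9me3. ES cells survive without DNA methyltransferases, which few other cells do, so the effect on RNA can be read in a growing culture.

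The libraries held between 18613633 and 29257911 reads assigned to genes and between 898390 and 1428915 reads assigned to TE integrants, an integrant being a single annotated copy. Levels are CPM, counts scaled to the library's gene reads with TMM factors, and values are listed in the order of replicates 1, 2 and 3. A gene, integrant or family is said to have risen or fallen when edgeR's quasi-likelihood test gave a Benjamini-Hochberg adjusted p under 0.05 and the change was at least 2-fold. Differences are log2 of DNMT TKO over WT, with a standard error (SE). Pluripotency markers summed to between 3356 and 3475 CPM in DNMT TKO and between 3049 and 3198 CPM in WT, and all 5 of them (Pou5f1, Sox2, Nanog, Esrrb and Zfp42) were expressed. No marker of other cells was at 0 reads. Summed fibroblast markers were 5.61 to 8.31 CPM against 3.2 to 4.14, primitive endoderm markers 5.72 to 8.89 against 9.12 to 10.7, trophoblast markers 8.35 to 15.2 against 19.9 to 24.9, blood markers 3.81 to 6.52 against 2.32 to 3.26 and primordial germ cell markers 81.5 to 116 against 72.6 to 82.9. These are bulk libraries, in which fewer cells of a type and less RNA per cell cannot be told apart.

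The 3 disrupted genes came out as the labels say, although none was silent. Dnmt3a, a de novo methyltransferase, stood at 6.47, 8.45 and 7.89 CPM in DNMT TKO against 49.6, 64.5 and 69.2 CPM in WT, a fall of 8-fold (SE 0.15 on the log2 scale, adjusted p = 9.53e-07). Dnmt3b, its close relative, stood at 32.5, 20.1 and 22.4 CPM against 188, 135 and 131 CPM (log2 −2.61, SE 0.22, adjusted p = 9.54e-05). Dnmt1, the maintenance enzyme, kept the most RNA, with 155, 155 and 156 CPM against 502, 464 and 460 CPM (log2 −1.61, SE 0.05, adjusted p = 7.38e-08). For each of them every DNMT TKO library lay below every WT library. RNA counts do not say whether what remained codes for a working protein. Trim28, whose product KAP1 was to be left in place here, was at 2059, 1810 and 1698 CPM against 1947, 1589 and 1567 CPM, groups that overlapped (log2 0.13, SE 0.10, adjusted p = 0.343).

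Many genes differed between DNMT TKO and WT in both directions. Of 19780 genes tested, 1653 rose (8.36%) and 1454 fell (7.35%), and the median gene was at 0.01 on the log2 scale. Most of the changes lay at low levels, with a median of 2.12 CPM in the higher group for genes that rose. The median rise was 3.95-fold, 454 genes rose at least 8-fold, and 133 of the risen genes had no read in any WT library. The median fall was 3.45-fold, and 72 of the fallen genes had no read in any DNMT TKO library. Protein-coding genes rose in 8.73% and fell in 7.54% of cases, whereas long intergenic non-coding RNAs fell more often than they rose, 13% against 7.31%.

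Among genes with at least 500 reads in all, the largest rises were on genes nearly silent in WT. The pseudogene Gm14094 (chr2:133025347-133025956, plus strand, build mm9) read 22.7, 22.4 and 23.1 CPM against 0.217, 0.069 and 0 CPM (log2 8.08, SE 0.34, adjusted p = 3.22e-07). It was followed by the testis genes Magea8 and Magea5 and by Gm14443 at 6.63, Ushbp1 at 6.43, Kbtbd11 at 6.40, Efhc2 at 6.28, the cell fusion receptor Tm7sf4 at 6.27, the sialyltransferase St8sia5 at 6.12 and the lymphocyte adaptor Sash3 at 5.68 on the log2 scale. In all 10 of these genes the groups did not overlap, which the rule for naming them required.

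By the same rule the largest falls included genes that WT cells expressed well. Mid1 (chrX:166123129-166443668, plus strand), a ubiquitin ligase whose gene spans the pseudoautosomal boundary in many mouse strains, read 1.7, 1.65 and 1.62 CPM against 462, 402 and 398 CPM (log2 −7.99, SE 0.10, adjusted p = 2.98e-10). Trim12a (chr7:111448408-111463980, minus strand), of the TRIM family of ubiquitin ligases, was at 0, 0 and 0.0385 CPM against 10.1, 11.3 and 11.8 CPM (log2 −9.25, SE 0.37, adjusted p = 2.35e-07). The pseudogene Gm13394 was at 1.8, 1.75 and 2.12 CPM against 158, 156 and 148 CPM (log2 −6.34, SE 0.09, adjusted p = 4.53e-10). Each replicate showed these near-complete losses. The others were the apolipoprotein gene Apoa2 at −7.11, Gm6673 at −6.81, 1190002H23Rik at −6.64, the semaphorin Sema5a at −6.49, Gm14567 at −6.15, 2410018L13Rik at −6.02 and 5730507C01Rik at −5.76.

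**Figure D1:**
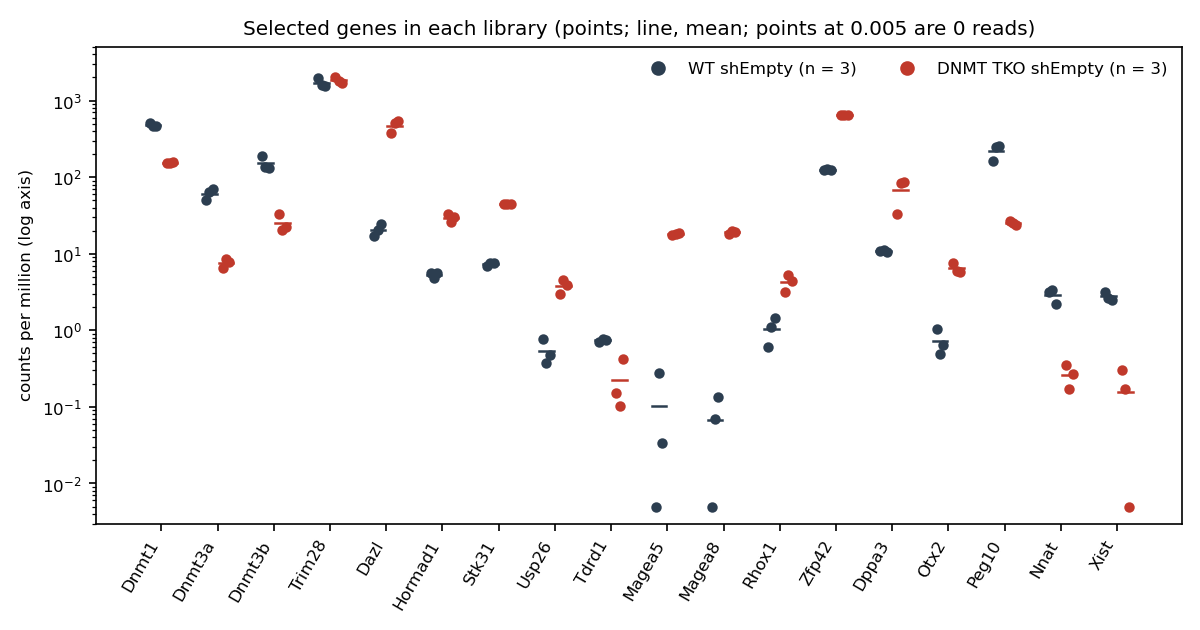
Level of 18 genes in each library, in CPM on a log axis, with WT shEmpty in dark blue and DNMT TKO shEmpty in red (points, 3 libraries each; line, mean; points at the bottom stand for 0 reads). Dazl, Magea5, Magea8 and Zfp42 sit far higher in DNMT TKO, Dnmt3a, Peg10 and Xist lower, and Trim28 overlaps.

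Reproductive gene clusters of the X chromosome rose in a larger share than any other of the 21 lists examined. The list holds the Rhox homeobox cluster, expressed in gonad and placenta, the Xlr genes and the Magea, Mageb and Fthl17 families, most of them restricted to testis. Of 73 members in the files, 47 had enough reads to be tested, and of those 32 rose (68.1%) and none fell by the edgeR test, against 8.36% of all genes. The median of the tested members was 3.29. Members silent in both genotypes were not tested, and a member silent in WT entered the test only through its reads in DNMT TKO, so these shares describe the tested members and not the clusters as a whole.

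Within the list the Magea genes moved furthest. Magea8 (chrX:151420318-151430393, minus strand) read 18.3, 19.5 and 19.1 CPM against 0, 0.069 and 0.136 CPM (log2 7.84, SE 0.29, adjusted p = 1.58e-07). Magea5, about as far, read 17.3, 17.9 and 18.7 CPM against 0, 0.276 and 0.0341 CPM (log2 7.21, SE 0.40, adjusted p = 2.03e-06). Magea6 and Magea3 had no WT read and were at least 45-fold and at least 31-fold higher, taking 3 reads over the WT group as the floor. All 7 Magea genes that could be tested rose. These copies are near-identical, and the authors counted only reads with a single best place in the genome, so the split between copies is uncertain.

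Rhox and Xlr genes rose as well. Rhox1 went from 0.597, 1.1 and 1.43 CPM to 3.16, 5.26 and 4.43 CPM (log2 1.99, SE 0.31, adjusted p = 7.25e-04). Rhox2a stood at 1.55, 3.5 and 2.89 CPM against 0.0543, 0 and 0.205 CPM (log2 4.81, SE 0.62, adjusted p = 2.97e-04). Rhox2h and Rhox4a, with no WT read, were at least 15.3-fold and at least 15-fold higher. Xlr3a stood at 45.8, 56.1 and 58.2 CPM against 5.97, 5.9 and 5.52 CPM (log2 3.21). The X chromosome as a whole had 131 of 920 tested genes higher (14.2%) and 46 lower (5%), and 99 of 875 higher (11.3%) once the list was set aside. On the Y chromosome 5 of 10 tested genes rose (50%, against 8.36% of all genes), with the zinc finger gene Zfy1 at 11.4, 17.4 and 18.1 CPM against 0.272, 0.276 and 0.375 CPM. The median of the Y genes was 2.55, and 1.28 in TET TKO against the same WT libraries.

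Autosomal and X-linked germline genes outside those clusters rose less uniformly. Of 42 tested (of 43 in the files), 17 rose (40.5%), 4 fell and the median was 0.71. Dazl, an RNA-binding protein that drives germ cell translation, went from 16.8, 20.5 and 24.6 CPM to 377, 503 and 534 CPM (log2 4.50, SE 0.18, adjusted p = 2.45e-06). Stk31, a germ cell protein kinase with a Tudor domain, read 44.7, 44.4 and 45.1 CPM against 6.84, 7.66 and 7.47 CPM (log2 2.61, SE 0.08, adjusted p = 6.72e-08). Hormad1, of the meiotic chromosome axis, read 33.2, 25.7 and 30 CPM against 5.65, 4.86 and 5.52 CPM (log2 2.47, SE 0.13, adjusted p = 9.39e-07). The groups were far apart in all of them. Genes of meiotic cohesin (Smc1b, 3.07, and Stag3, 1.08), of the synaptonemal complex (Syce1, 2.19) and of the piRNA pathway (Mov10l1, 1.08, Tdrd9, 1.18, Tdrkh, and Fkbp6, 1.95) rose too, as did the testis tubulins Tuba3b (3.65) and Tuba3a (2.16), the deubiquitinase Usp26 (2.88) and Boll (2.66), a relative of Dazl.

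The 4 germline genes that fell were 9.52% of those tested, near the 7.35% of all genes. Ddx4, the Vasa helicase of germ cells, stood at 4.01, 4.47 and 4.43 CPM against 9.56, 10.1 and 9.92 CPM (log2 −1.19, SE 0.13, adjusted p = 8.51e-05). D1Pas1, a testis RNA helicase, fell by 1.71, Tdrd5, a Tudor protein of the piRNA pathway, by 1.48, and Tdrd1, another of these, by 1.69 on the log2 scale. Tdrd1 was scarce throughout, at 0.15, 0.103 and 0.423 CPM against 0.706, 0.759 and 0.75 CPM (SE 0.46, adjusted p = 0.0162). Mael (log2 −0.51, adjusted p = 0.0952) and Sycp3 (log2 −0.45, adjusted p = 0.163) did not pass the test.

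The promoters of 4 germline genes and 2 Magea genes are shown because these genes carry the values above, and because their CpG content differs. Each is 250 bases before to 50 bases after the annotated start, 5′ to 3′ on the gene's strand, read from the mm9 genome, with CG in capitals. The windows are chr17:50432875-50433174 minus for Dazl, chr6:49345353-49345652 plus for Stk31, chr3:95363349-95363648 plus for Hormad1, chr19:56900449-56900748 plus for Tdrd1, chrX:151430344-151430643 minus for Magea8 and chrX:151497639-151497938 minus for Magea5.
Dazl: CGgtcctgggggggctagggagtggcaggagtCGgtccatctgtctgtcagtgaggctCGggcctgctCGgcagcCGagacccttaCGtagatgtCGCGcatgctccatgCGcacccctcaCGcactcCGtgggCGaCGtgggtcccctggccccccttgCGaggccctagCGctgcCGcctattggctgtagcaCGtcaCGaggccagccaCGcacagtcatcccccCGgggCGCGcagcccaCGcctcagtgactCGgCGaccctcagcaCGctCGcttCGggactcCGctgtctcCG
Stk31: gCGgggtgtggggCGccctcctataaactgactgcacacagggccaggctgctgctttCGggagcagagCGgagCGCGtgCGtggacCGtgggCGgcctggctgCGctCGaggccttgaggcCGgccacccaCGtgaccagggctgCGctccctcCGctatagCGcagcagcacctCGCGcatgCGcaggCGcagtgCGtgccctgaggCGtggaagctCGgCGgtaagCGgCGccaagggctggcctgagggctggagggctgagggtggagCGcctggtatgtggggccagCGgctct
Hormad1: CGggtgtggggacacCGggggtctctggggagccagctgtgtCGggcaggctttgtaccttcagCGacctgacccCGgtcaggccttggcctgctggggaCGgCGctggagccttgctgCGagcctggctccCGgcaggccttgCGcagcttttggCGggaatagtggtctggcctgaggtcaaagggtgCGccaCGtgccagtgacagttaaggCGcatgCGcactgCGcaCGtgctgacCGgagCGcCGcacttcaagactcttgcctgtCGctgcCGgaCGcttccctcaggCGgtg
Tdrd1: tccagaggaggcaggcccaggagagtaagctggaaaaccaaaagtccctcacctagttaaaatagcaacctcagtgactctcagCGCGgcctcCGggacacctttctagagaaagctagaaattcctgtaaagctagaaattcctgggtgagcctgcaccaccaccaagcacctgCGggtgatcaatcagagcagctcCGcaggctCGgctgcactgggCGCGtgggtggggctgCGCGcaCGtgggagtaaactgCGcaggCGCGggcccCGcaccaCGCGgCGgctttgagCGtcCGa
Magea8: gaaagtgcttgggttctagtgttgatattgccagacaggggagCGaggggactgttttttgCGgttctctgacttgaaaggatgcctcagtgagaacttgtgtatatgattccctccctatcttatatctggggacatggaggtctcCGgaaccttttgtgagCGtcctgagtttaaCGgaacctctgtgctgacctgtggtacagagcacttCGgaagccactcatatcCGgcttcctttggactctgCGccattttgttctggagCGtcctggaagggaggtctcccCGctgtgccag
Magea5: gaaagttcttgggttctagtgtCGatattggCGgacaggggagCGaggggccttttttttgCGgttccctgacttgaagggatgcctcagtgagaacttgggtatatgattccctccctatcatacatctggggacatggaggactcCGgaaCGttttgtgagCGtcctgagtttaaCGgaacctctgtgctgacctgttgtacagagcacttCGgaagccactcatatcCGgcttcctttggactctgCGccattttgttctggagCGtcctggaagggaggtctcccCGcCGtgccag

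These windows hold 30 CpG in Dazl, 28 in Stk31, 24 in Hormad1, 20 in Tdrd1, 10 in Magea8 and 14 in Magea5, against a median of 15 over all tested genes. The 17 germline genes that rose had a median of 22, the 25 other tested germline genes a median of 17, and the 32 X-linked genes that rose a median of 7. The palindrome CGCATGCG, the core recognised by the CpG-sensitive activator NRF1, was searched on both strands, without regard to overlap with other motifs. It was found in 6 of the 17 germline genes that rose (Mov10l1, Tex19.1, Syce1, Hormad1, Stk31 and Tuba3b), in 0 of the 25 other tested germline genes and in 2.56% of all tested promoters. Among all risen genes it was in 1.57% of promoters, and in 0 of the 32 X-linked genes that rose. The E-box CACGTG was as frequent in germline genes that rose (35.3%) as in those that did not (40%), and both were above the 8.48% of all promoters. Dazl holds neither motif in this window. The windows of Dazl and Magea5 were not the same as one at a start in the RefSeq annotation, while those of the other genes shown were. The 6-base core GCGGGA was in 35.3% of the risen and 40% of the other germline promoters, against 28.5% of all. These matches describe the letters only. Binding was not measured in this comparison.

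Imprinted genes, expressed from 1 parental allele, changed in both directions around a median of 0.01. Of 52 tested (of 56 in the files), 8 rose and 11 fell, together 36.5% against 15.7% of all genes. The paternally expressed Peg10 stood at 26.6, 24.8 and 23.6 CPM against 162, 247 and 254 CPM (log2 −3.15, SE 0.18, adjusted p = 1.17e-05), and its neighbours on chromosome 6, Sgce (−2.57), Ppp1r9a (−2.09) and Asb4 (−2.02), fell with it. At the Igf2 and H19 domain both genes fell, the growth factor Igf2 from 5.7, 10.3 and 11.9 CPM to 1.35, 0.996 and 1.35 CPM (log2 −2.94) and the non-coding RNA H19 by 3.06 on the log2 scale. Nnat (−3.49), Slc22a3 (−4.39), Phlda2 (−1.47) and Mest (−1.19) fell as well, and Kcnq1, with no read in DNMT TKO, was at least 4.56-fold lower. The groups of Slc22a3 overlapped at 0, and leaving out most single libraries ended its call. Airn (2.93), Usp29 (2.25), Zim1 (2.04), Magel2 (2.01), Inpp5f (1.78), Slc38a4 (1.56), Sfmbt2 (1.22) and Dlk1 (1.09) rose. Meg3, maternally expressed from the same domain as Dlk1, was at 533, 519 and 528 CPM against 302, 256 and 252 CPM and stayed just short of 2-fold (log2 0.97, adjusted p = 9.90e-06).

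Xist, the RNA that coats the inactive X and is little expressed in male ES cells, was lower still in DNMT TKO, at 0.301, 0.172 and 0 CPM against 3.2, 2.66 and 2.49 CPM (log2 −4.18, SE 0.51, adjusted p = 1.85e-04). Its antisense partner Tsix rose by 1.05, from 5.87, 6.1 and 7.4 CPM to 16.3, 13.5 and 10.5 CPM, and fell short of 2-fold without DNMT TKO replicate 1 (0.89) or WT replicate 1 (0.97). Counting was stranded, so reads of these overlapping genes can be assigned.

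**Figure D2:**
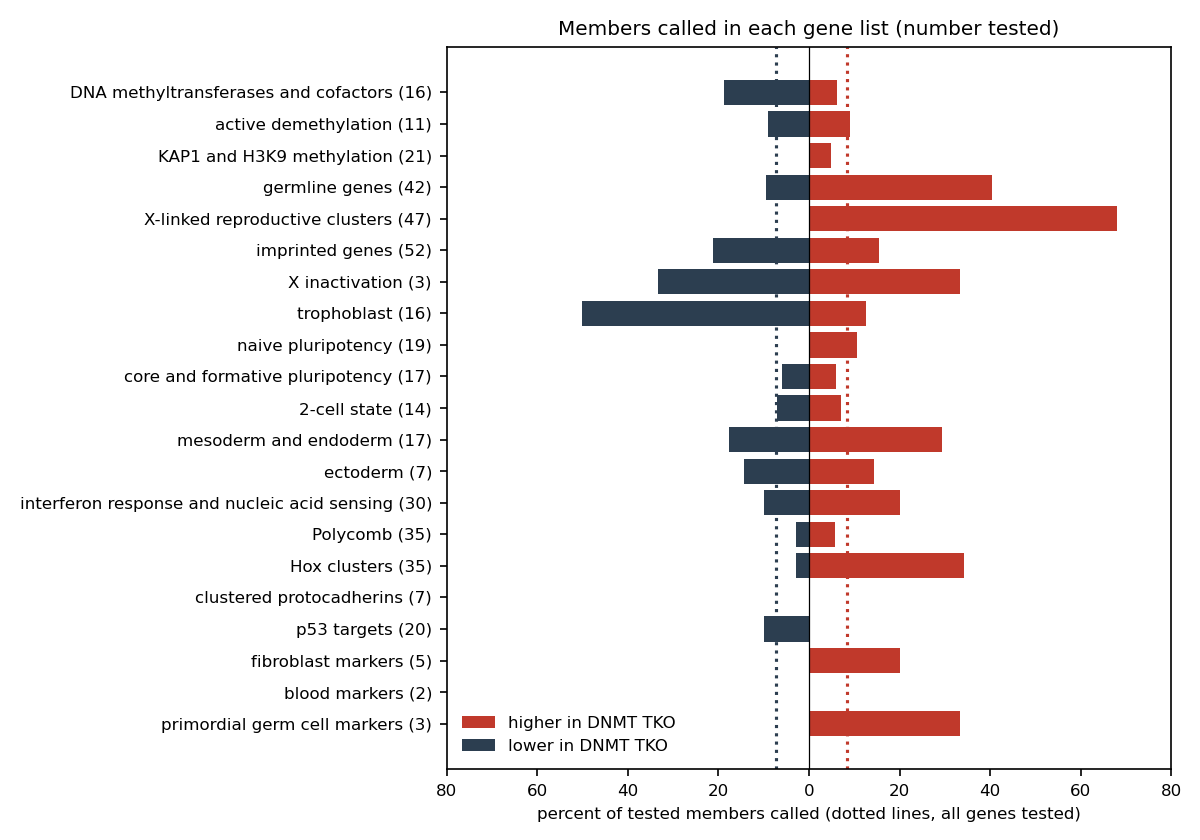
Share of tested members that rose (red, to the right) or fell (dark blue, to the left) in each of 21 gene lists, in percent of the tested members given in parentheses; dotted lines show 8.36% and 7.35%, the shares over all genes. The X-linked reproductive clusters (68.1% higher) and germline genes (40.5%) extend furthest to the right among lists of more than 10 tested genes, and the trophoblast list (50% lower) furthest to the left.

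Core pluripotency genes kept their levels within 2-fold, with a few clear exceptions. Pou5f1 (−0.25), Sox2 (0.38), Nanog (−0.14) and Esrrb (−0.22) stayed within the limit, and of 19 naive pluripotency genes 2 rose (10.5%, near the 8.36% of all genes) and none fell by the edgeR test. Zfp42 (Rex1), a zinc finger gene of naive cells, went from 125, 126 and 125 CPM to 657, 644 and 649 CPM (log2 2.37, SE 0.05, adjusted p = 2.50e-09). Pramel6 went from 7.22, 21.6 and 20.1 CPM to 51.3, 65.7 and 70.2 CPM (log2 1.91, SE 0.37, adjusted p = 0.00678). Dppa3 (Stella), which keeps the maintenance factor UHRF1 in check, stood at 33.2, 84.1 and 86.6 CPM against 10.7, 11.2 and 10.6 CPM (log2 2.65, SE 0.37, adjusted p = 0.00187). The groups were apart in each. Among 17 core and formative genes, of which 5.88% rose and 5.88% fell, below the shares of all genes, Otx2, which marks exit from the naive state, rose from 1.03, 0.483 and 0.648 CPM to 7.62, 6.01 and 5.73 CPM (log2 3.21), while Fgf5, another such marker, fell by 3.42. In the list of genes specific to the 2-cell embryo, at 7.14% in each direction and near the shares of all genes, 1 rose (Sp110, 1.63) and 1 fell (Zscan4b, −1.76) of 14, and the call of Sp110 was lost without DNMT TKO replicate 3 (1.40).

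Lineage genes moved in a mixed way at low levels. Of 16 trophoblast genes tested, 8 fell (50%, against 7.35% of all genes) and 2 rose (12.5%, against 8.36%), with a median of −1.40. The keratins Krt8 (18.2, 12.3 and 12.1 CPM against 34.3, 48.3 and 44 CPM, log2 −1.58), Krt18 (−1.79) and Krt7 (−1.90) fell with Gata3 (−2.49), Gata2 (−1.38), Fgfr2 (−2.05), Id2 (−1.58) and Eomes (−2.16, adjusted p = 0.0047, or 0.0784 with the replicate number as a block). Cdx2, the trophectoderm determinant, rose by 1.98 and Hand1, which lost its call when most single libraries were left out, by 2.11. Of 17 mesoderm and endoderm genes 5 rose (29.4%; Kdr, T, Gsc, Lefty2 and Mixl1, between 1.42 and 2.18) and 3 fell (17.6%), among them Sox7, an endoderm factor, at 0, 0.0343 and 0.0385 CPM against 3.69, 1.97 and 1.3 CPM (log2 −6.16). In the ectoderm list, at 14.3% in each direction, Nes rose by 1.15 and Zic1 fell by 1.99 of 7 tested (not past the test without WT replicate 2, −1.83), and Pax6 passed only with the block (log2 1.14, adjusted p = 0.0529, or 3.73e-04 with the block).

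Hox genes, the body axis regulators that Polycomb keeps silent in ES cells, rose in 12 of 35 tested cases (34.3%, against 8.36% of all genes), with a median of 0.73. Of these 12, only 3 also rose with the Kap1 hairpin and 1 fell there (Hoxb2), whereas 63.7% of all risen genes rose again. Levels of the Hox genes were low. Hoxc11 stood at 1.55, 3.06 and 3.35 CPM against 0.109, 0.345 and 0.511 CPM (log2 2.94, SE 0.44, adjusted p = 6.13e-04), and Hoxa10 at 2.71, 6.39 and 6.04 CPM against 0.217, 1.38 and 1.74 CPM (log2 2.11). Hoxa11 (3.09), Hoxb2 (2.60), Hoxc8 (2.14) and Hoxd10 (2.11) were the other large rises. The groups of Hoxb2 overlapped, and the calls of Hoxa10, Hoxa11, Hoxb2 and Hoxd10 were each lost when at least 1 library was left out. With the replicate block 2 members passed as lower that did not pass without it, Hoxa3 (log2 −1.57, adjusted p = 0.0928, or 7.80e-05 with the block) and Hoxa2 (log2 −1.35, adjusted p = 0.124, or 0.0438). Of 35 Polycomb genes only Suz12 (1.24), Cbx8 (1.04) and Phf19 (−1.07) passed (5.71% higher and 2.86% lower, below the shares of all genes), the last 2 falling short of 2-fold when some single libraries were left out. Suz12, a core subunit of the H3K27 methyltransferase complex, was at 907, 971 and 1049 CPM against 428, 410 and 405 CPM, and lies with Cbx8 on chromosome 11, whose median gene was 0.33 higher.

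The remaining lists were mixed. Of 21 genes of KAP1 silencing and H3K9 methylation only Zfp809 passed (4.76% higher and 0% lower, below the 8.36% and 7.35% of all genes). It is a KRAB zinc finger gene whose product binds murine leukaemia virus sequences, and it was at 50.4, 60 and 60.1 CPM against 21.8, 19.1 and 18.8 CPM (log2 1.52, SE 0.09, adjusted p = 3.19e-06). Setdb1 was higher by 0.70 and Zfp57, the imprint-keeping zinc finger, lower by 0.60, both under 2-fold. Of 30 interferon response and nucleic acid sensing genes 6 rose (20%) and 3 fell (10%), against 8.36% and 7.35% of all genes. The antiviral Mx1 (2.97), Mx2 (2.63) and Oasl2 (2.01) rose, from at most 0.31 CPM in any WT library, Zbp1 fell by 3.18 and Bst2 by 1.32, and the calls of Mx2 and Oasl2 were lost when some single libraries were left out. The sensors Ddx58 (−0.24), Ifih1 (0.68) and Mavs (−0.04) did not pass. Of 20 p53 targets 2 fell (10%, near the 7.35% of all genes), Pmaip1 (Noxa), a promoter of apoptosis, at 1.55, 2.92 and 4.39 CPM against 49.4, 63.1 and 61.3 CPM (log2 −4.26), and Gdf15 (−1.79). Idh1 rose by 1.22 and Gadd45a fell by 1.78 among 11 genes of active demethylation (9.09% each, near the shares of all genes), and none of Tet1, Tet2 and Tet3 reached 2-fold. None of the 7 protocadherins tested of 25 in the files, nor of the 2 blood markers, passed edgeR's test at adjusted p under 0.05 with 2-fold. Thy1 (2.04) among 5 fibroblast markers (20%) and Nanos3 (1.66) among 3 primordial germ cell markers (33.3%) rose, against 8.36% of all genes. In lists this short 1 call makes a large share. The part of these markers in the other results was not tested.

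Genes that rose had few CpG in the windows at their annotated starts. These starts are the outermost annotated ends of genes. Of 19775 windows, 5712 were the same as one at a start in the RefSeq annotation (522 of 1653 for risen and 460 of 1454 for fallen genes). The other windows may miss the start in use. The 1653 risen genes had a median of 8 CpG per 300-base window and the 1454 fallen genes 11, against 15 overall. The share that rose went down from class to class, 14.6% of 2744 genes with 0 to 3 CpG, 11.5% with 4 to 9, 7.12% with 10 to 19 and 4.98% of 7457 with 20 or more. The share that fell moved less, from 8.75% and 8.88% in the lower classes to 7.35% and 5.91%. In the study's own ChIP-seq region sets, from WT ES cells, H3K4me3, the mark of active promoters, covered 44.3% of risen, 65.7% of fallen and 67.9% of all tested promoters. H3K27me3, the Polycomb mark, covered 22.3%, 22.8% and 11.7%. Neither mark was found at 51.1% of risen promoters against 29.6% of all.

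Reads on TEs as a class were slightly fewer in DNMT TKO. All tested classes together summed to 45040, 44956 and 46159 CPM in DNMT TKO against 50360, 48363 and 48709 CPM in WT, ranges that did not overlap. Of 6645309 reads on tested integrants, 2805475 were on integrants in exons and 1843083 in introns of genes on the same strand. The sums therefore include RNA of those genes and are not TE output alone. Of 112737 integrants tested, 4751 rose (4.21%) and 8194 fell (7.27%). Counts per integrant were low, and of those that rose 1598 (33.6%) had no WT read, while of those that fell 2239 (27.3%) had no DNMT TKO read. The median integrant was at −0.19 when scaled by gene reads and at −0.04 when scaled by TE reads, and the second scaling gave 5518 higher and 6786 lower. Of the 4751 that rose, 693 lay in genes that rose on the same strand, and of the 8194 that fell, 954 lay in genes that fell. Integrant calls depended on the tool and on single libraries: DESeq2 gave 1804 higher and 3306 lower, edgeR's filterByExpr 1661 and 2987, and without WT replicate 3 the number that rose was 3159.

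The classes differed. LINE integrants fell in 18.6% and rose in 5.82% of cases, LTR elements (ERVs and their solitary LTRs) rose in 9.09% and fell in 7.67%, SINEs moved in 2.33% and 3.56% and DNA transposons in 3.26% and 5.03%. LTR elements with an internal, protein-coding part rose more often (14.1%) than those without (6.38%). Among LTR superfamilies ERV1 (16.3% higher, 10.3% lower) and ERVK (11.8% and 8.68%) moved most. Summed over a family, 37 of 887 families rose (4.17%) and 43 fell (4.85%), or 43 and 32 when scaled by TE reads.

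The young L1 subfamilies split. L1 elements are LINEs that copy themselves through an RNA, and the L1Md_A, L1Md_T and L1Md_Gf subfamilies hold full-length copies with promoters of their own. L1Md_T, the highest of the named families in WT, stood at 474, 430 and 455 CPM in DNMT TKO against 2159, 1909 and 1889 CPM in WT (log2 −2.13, SE 0.06, adjusted p = 2.11e-07). L1Md_Gf stood at 17.6, 18.1 and 15.9 CPM against 105, 96.7 and 88.3 CPM (log2 −2.49, SE 0.08, adjusted p = 6.03e-10). L1Md_A stood at 457, 411 and 432 CPM against 293, 248 and 251 CPM, higher in every library but under 2-fold (log2 0.72, SE 0.07, adjusted p = 5.39e-05). Without DNA methyltransferases L1Md_T and L1Md_A were therefore at near-equal CPM, where WT cells had several times more of the former.

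The split ran through the single integrants. Of 5578 L1Md_T integrants tested, 2519 fell and 43 rose, and they alone were 30.7% of all TE falls. Of 278 L1Md_Gf integrants 138 fell and 0 rose. Of 2479 L1Md_A integrants 495 rose and 154 fell, and they were 10.4% of all TE rises, the most of any family. Among L1Md_A copies of 5 kb or longer 404 of 1720 rose and 83 fell (median 1.23), and among shorter ones 91 of 759 rose and 71 fell (median −0.13). The older L1Md_F2 fell in 325 and rose in 110 of 1882 integrants (family log2 −0.22). A pair of integrants of these subfamilies, among those with at least 200 reads, shows how far single copies moved. An L1Md_A copy between genes (chr5:68604421-68613477, minus strand) read 7.62, 7.08 and 8.04 CPM against no WT read, at least 193-fold higher. An L1Md_T copy between genes (chr4:90653436-90658422, plus strand) read 0, 0 and 0.0385 CPM against 12.2, 18.4 and 17.5 CPM (log2 −9.78). L1 copies are alike over long stretches, and reads that fit several of them were not counted, so levels of single copies rest on their unique bases.

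The study's ChIP-seq sets, from WT cells, divided the L1 integrants further. H3K4me3 in WT picks copies active there, which have RNA to lose, so more falls inside these regions were partly set in advance. L1Md_T integrants in H3K4me3 regions fell in 1408 of 2087 cases (67.5%, median −2.79), those outside in 1111 of 3491 (31.8%, median −1.96). L1Md_Gf showed the same order, with 98 of 156 in the regions and 40 of 122 outside. KAP1 and H3K9me3 regions may pick copies silent in WT, and such copies were tested only through their DNMT TKO reads. More rises inside these regions may thus also have been partly set in advance. L1Md_A integrants bound by KAP1 rose in 402 of 1398 cases (28.8%, median 1.84) and those not bound in 93 of 1081 (8.6%, median −0.24). Where H3K9me3 was lost upon KAP1 depletion, 292 of 924 L1Md_A copies rose (31.6%), elsewhere 203 of 1555 (13.1%). Over all TEs, KAP1 regions covered 18.1% of risen, 10.8% of fallen and 4.71% of tested integrants, and H3K4me3 regions 2.76%, 24.9% and 8.04%. Of the 5306 tested integrants in KAP1 regions, 16.2% rose and 16.6% fell. Risen and fallen integrants were also longer (medians of 377 and 664 bases against 168 for all tested) and had more reads (28 and 30 against 15). Longer copies overlap a region more easily, and these shares were not adjusted for length or reads.

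**Figure D3:**
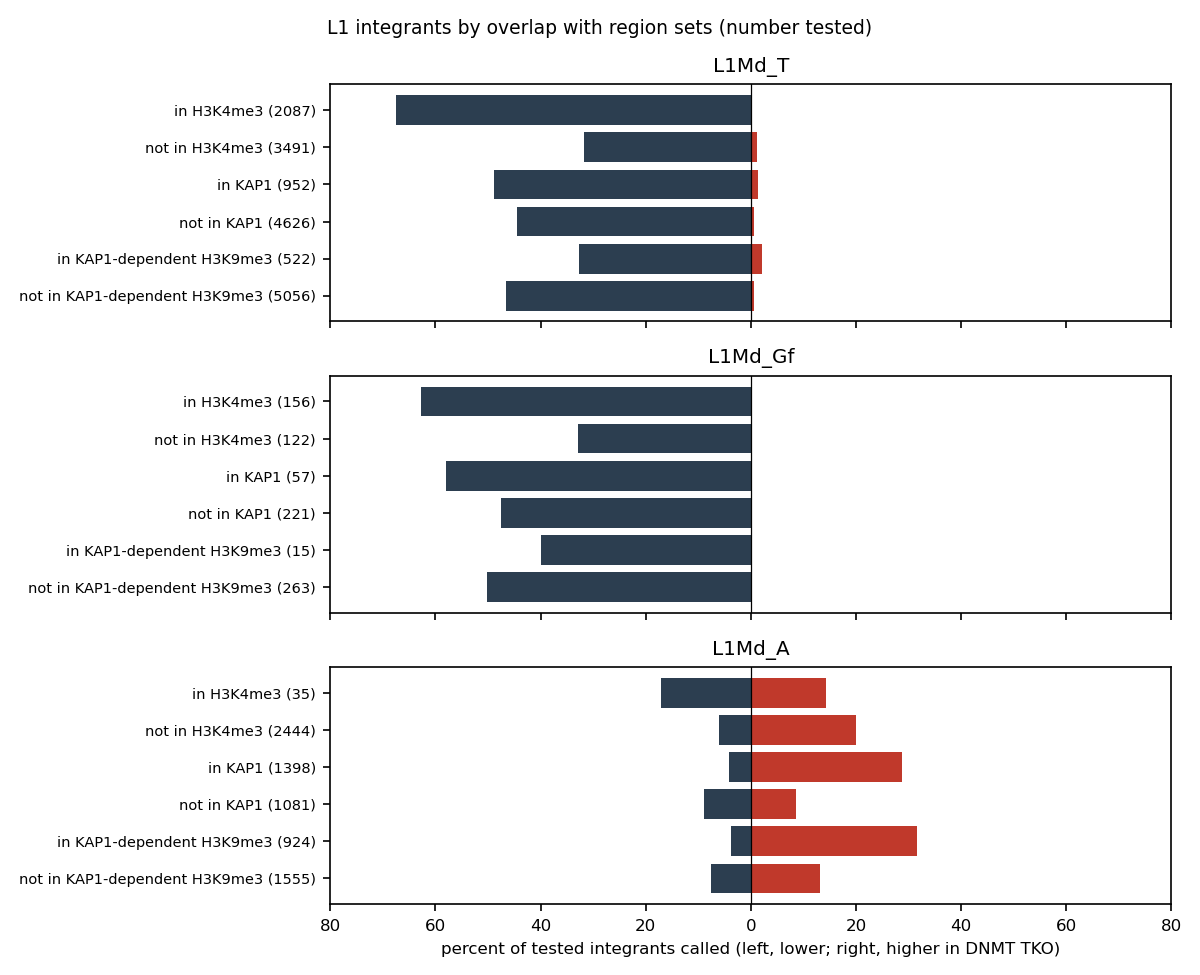
Percent of tested L1Md_T, L1Md_Gf and L1Md_A integrants that rose (red, right) or fell (dark blue, left), inside and outside H3K4me3, KAP1 and KAP1-dependent H3K9me3 regions (number tested in parentheses). Falls of L1Md_T are more frequent in H3K4me3 (67.5% against 31.8%), rises of L1Md_A in KAP1 regions (28.8% against 8.6%).

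Some ERV families rose strongly with KAP1 present. RLTR45-int read 335, 488 and 435 CPM against 22.8, 58.5 and 48.7 CPM (log2 3.27, SE 0.43, adjusted p = 0.00701). Of its 115 tested integrants 66 were higher and 2 lower, where 4.21% and 7.27% of all integrants were, so the rise was not that of 1 copy. A copy silent in WT was tested only through its DNMT TKO reads, so the counts of copies here describe the tested ones and not whole families. IAPEy-int, a branch of the IAP retroviruses, read 12, 10.3 and 12 CPM against 1.74, 1.48 and 1.57 CPM (log2 2.85, SE 0.13, adjusted p = 1.13e-08), with 18 of 34 higher and 0 lower. ERVB4_2-I_MM-int read 46.9, 76.2 and 73.6 CPM against 6.46, 13.2 and 17.8 CPM (log2 2.37, SE 0.43, adjusted p = 0.0182). This last family rested in part on 1 locus, an ERVB4_2-I_MM-int copy (chr8:19909739-19911148, minus strand) 38.9% of its reads, which lies beside the leading RLTR45-int copy (chr8:19911160-19917208) in an intron of 2610005L07Rik. The 2 copies varied widely between WT libraries, at 0.434, 18.9 and 3.55 CPM for the RLTR45-int copy, and neither passed alone. MMERVK10D3_I-int (1.81), IAP-d-int (1.21), RLTR44-int (1.17), RLTR4_MM-int (1.14), LTRIS2 (1.10), MURVY-int (1.08) and IAPLTR2a (1.00) rose by less, and the calls of RLTR44-int, LTRIS2 and IAPLTR2a, like that of ERVB4_2-I_MM-int, did not hold without some single libraries. IAPLTR2a lay at the 2-fold limit and fell just short of it with the replicate block as well (1.00, adjusted p = 5.39e-05).

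RLTR10C was a rise of 1 copy. The family went from 4.13, 3.24 and 2.9 CPM to 38.9, 29.9 and 35.6 CPM (log2 3.37, SE 0.14, adjusted p = 1.13e-08), and 81% of its reads came from a solitary LTR between genes (chr19:42234634-42235067, plus strand). That copy read 34.9, 26.1 and 32 CPM against 0.163, 0 and 0 CPM (log2 9.44). Only 3 of 24 RLTR10C integrants rose and 2 fell. Its first 300 bases (chr19:42234634-42234933) are shown beside those of the leading IAPEy-int copy (chr9:13562546-13562845, minus strand, the 5′ end of chr9:13558680-13562845), which read 2.46, 3.13 and 2.39 CPM against 0.109, 0.138 and 0.17 CPM. Capitals mark CG, of which the RLTR10C stretch holds 5 and the IAPEy-int stretch 19, so the risen copies were unlike in CpG content.
RLTR10C: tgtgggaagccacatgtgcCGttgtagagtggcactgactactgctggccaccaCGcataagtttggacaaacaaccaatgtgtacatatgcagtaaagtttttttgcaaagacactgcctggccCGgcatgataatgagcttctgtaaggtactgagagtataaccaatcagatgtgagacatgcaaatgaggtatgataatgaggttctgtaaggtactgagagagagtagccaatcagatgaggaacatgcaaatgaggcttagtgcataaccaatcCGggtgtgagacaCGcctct
IAPEy-int: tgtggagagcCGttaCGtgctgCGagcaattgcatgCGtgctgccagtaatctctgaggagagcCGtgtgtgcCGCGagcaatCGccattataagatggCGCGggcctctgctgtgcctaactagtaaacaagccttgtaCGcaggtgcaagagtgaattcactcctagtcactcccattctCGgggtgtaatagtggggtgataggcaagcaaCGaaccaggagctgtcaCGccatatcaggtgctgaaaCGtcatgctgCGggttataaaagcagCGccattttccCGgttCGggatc

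Other ERV families fell, mostly through single copies. MuLV-int, murine leukaemia virus, went from 61.7, 49.5 and 50.7 CPM to 3.21, 3.95 and 3.69 CPM (log2 −3.88, SE 0.11, adjusted p = 6.03e-10), with 89.3% of its reads on 1 provirus (chr5:23206397-23215063, minus strand). RLTR50B (−4.06) drew 62.9% and IAPLTR1a_Mm (−3.43) 90.1% of its reads from 1 copy, and MYSERV6-int (−2.58) 65.4% from a stretch in an exon of Coil. The stretch in Coil was read in both lines, at 7.02, 8.79 and 9.81 CPM in DNMT TKO against 162, 216 and 227 CPM in WT. For the other copies, a provirus present in a single line would look the same as a silenced one, and these cannot be told apart in counts. MMVL30-int fell by 1.31 and RLTR4_Mm by 1.41.

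Several abundant ERV families were near their WT level when summed over integrants. IAPEz-int, the main IAP family, was at 81.9, 73 and 135 CPM against 92.8, 101 and 109 CPM (log2 −0.06, SE 0.28, adjusted p = 0.889), with 36 integrants higher and 34 lower of 513. MMERVK10C-int was at 74.2, 79.7 and 83 CPM against 85.3, 74.6 and 77 CPM (log2 0.00, SE 0.06, adjusted p = 0.995). Its copies nonetheless moved both ways. In KAP1 regions 15.6% of 109 integrants rose and 22.9% fell, and outside them 13.2% of 68 rose and 23.5% fell. Over all integrants the shares were 4.21% and 7.27%. MERVL-int, the ERV of the 2-cell state, was at 118, 306 and 332 CPM against 160, 238 and 257 CPM (log2 0.21, SE 0.48, adjusted p = 0.789). The groups of these 3 families overlapped, and the SE of MERVL-int leaves room for a change near 2-fold. ETnERV-int (0.19), MMETn-int (−0.30), B1_Mm (−0.16) and B2_Mm1a (0.00) were within 2-fold. ETnERV3-int was higher in each DNMT TKO library, at 34.5, 122 and 126 CPM against 15.8, 28.2 and 30.4 CPM, and passed only with the replicate block (log2 1.91, adjusted p = 0.0915, or 0.0362 with the block). RLTR1B-int was lower as a family (−0.70) although 45 of its 127 integrants rose and 9 fell, and 32.5% of its reads came from 1 copy.

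**Figure D4:**
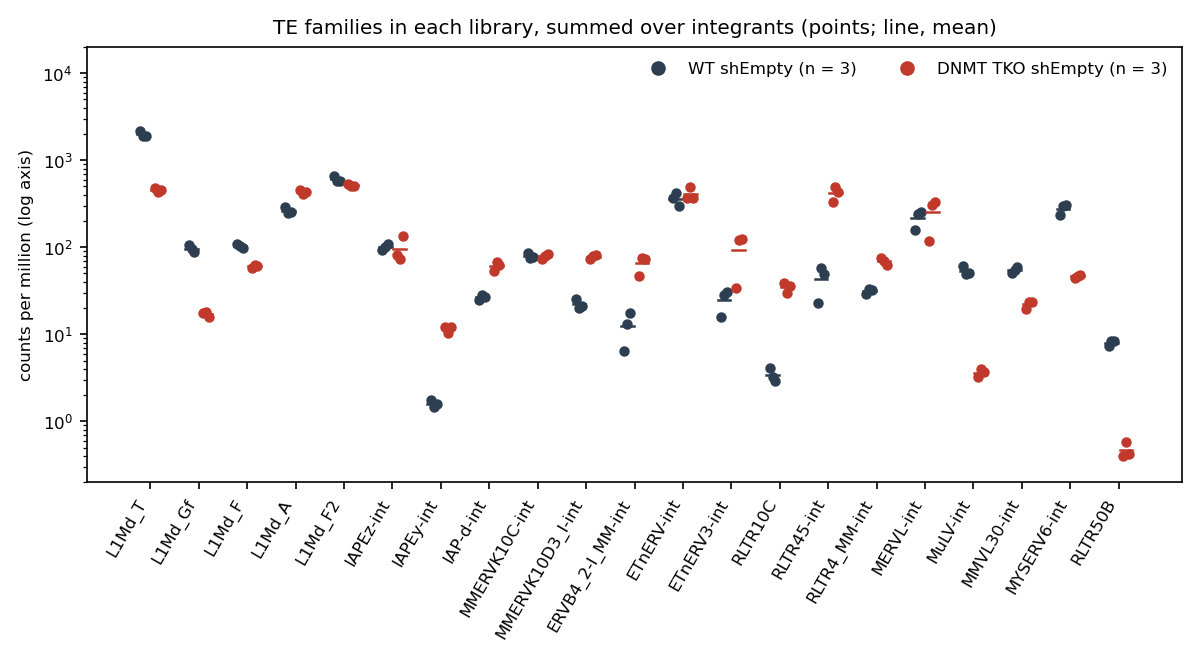
Level of 21 TE families in each library, summed over integrants, in CPM on a log axis (WT shEmpty dark blue, DNMT TKO shEmpty red; points, 3 libraries each; line, mean). L1Md_T, L1Md_Gf and MuLV-int lie lower in DNMT TKO, RLTR10C, RLTR45-int and IAPEy-int higher, and IAPEz-int and MMERVK10C-int overlap.

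Among single integrants with at least 200 reads the largest rises were an Lx3B fragment (chr2:174845929-174846553, plus strand, at least 406-fold), the L1Md_A copy above, 2 LTRIS_Mus copies (chr9:21164886-21165172, at least 128-fold, and chr16:70999129-70999613, at least 93.4-fold) and an MTA_Mm-int copy (chr1:90510578-90512436, at least 89-fold). All lay outside genes and none had a WT read. The largest falls besides L1Md_T were an L1_Mur1 copy (chr5:16734093-16735062, at least 137-fold lower), an RSINE1 copy in an exon of Tmem18 (at least 97.1-fold), a MER58A copy in an intron of Mid1 (at least 81.8-fold) and a B1_Mus1 copy on chromosome 12 (at least 78.9-fold). The MER58A copy lies in the gene that itself fell 254-fold.

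LTR elements and genes moved together near some gene starts. An LTR element that rose lay between 5 kb before and 1 kb after the start, on the same strand, for 39 of 1653 risen genes (2.36%), for 0.206% of fallen and for 0.556% of all tested genes. An LTR element that fell lay there for 2.34% of fallen genes and 0.485% of all. Most genes with such an element did not pass themselves, 68 of 110 beside a risen and 59 of 96 beside a fallen element. Ccnb1ip1, a meiotic recombination factor, rose by 4.78 beside an MTA_Mm copy (chr14:51414305-51414691, minus strand) that rose by 6.90, and Gm14443 rose beside MLTR25A and ORR1D1 copies that rose by 4.47 and 4.52. The same reads can count for a gene and for an LTR in its first exon, so these pairs are not independent measurements.

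The same genotypes with the Kap1 hairpin gave the same contrast in 6 libraries not used above. There 2295 genes rose (11.2%) and 1659 fell (8.11%) of 20449, and 9485 integrants rose (7.21%) and 8163 fell (6.2%) of 131557. Of the 1653 genes that rose with shEmpty, 1053 rose with shKap1 too (63.7%, and 45.9% of the shKap1 rises) and 12 fell. Of the 1454 that fell, 776 fell again (53.4% and 46.8%) and 34 rose. For TEs it was 2428 of 4751 rises (51.1%, and 25.6% of the shKap1 rises) and 2501 of 8194 falls (30.5% and 30.6%). The median of the risen genes went from 1.98 with shEmpty to 1.71 with shKap1, and that of the fallen integrants from −3.21 to −1.07. The features were chosen on the shEmpty values, which favours larger values there.

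The interaction of genotype and hairpin tests whether the effect of the mutations depended on the hairpin. It was higher with shKap1 for 866 genes (4.28%) and lower for 462 (2.28%), and for 1663 (1.36%) and 577 (0.473%) integrants. The L1 falls were among the cases that passed. L1Md_T differed by −2.13 with shEmpty and by −0.26 with shKap1 (difference 1.90, SE 0.10, adjusted p = 6.72e-07), with group means of 2046 and 456 CPM in WT and DNMT TKO with shEmpty and 2253 and 1877 CPM with shKap1. L1Md_Gf went from −2.49 to −0.45 (difference 2.07, SE 0.13, adjusted p = 2.92e-08). Thus the fall of these subfamilies was strong with the empty vector and weak with the Kap1 hairpin. L1Md_A was higher in both settings, by 0.72 and, with shKap1, by 1.27, and the interaction did not reach 2-fold (0.58, adjusted p = 0.0397). IAPEy-int rose alike (2.85 and 2.69), and RLTR10C less with shKap1 (1.55). Trim28 RNA itself was 1.37 higher in DNMT TKO than in WT when both carried shKap1 (427 and 165 CPM), so the depletion was unequal between genotypes.

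TET TKO cells, which lack the enzymes that oxidise methylcytosine, share the WT controls used above, so the values are set side by side. Against WT, 1002 genes (5.06%) rose and 896 (4.52%) fell in TET TKO, and 2358 (1.96%) and 3433 (2.85%) integrants. The direct comparison of DNMT TKO with TET TKO tests which changes differ between the mutants, and in it 1352 genes (6.8%) were higher and 1356 (6.82%) lower, with 3293 (2.86%) and 4127 (3.58%) integrants. Lists were counted over members tested in DNMT TKO against WT, so members read only in TET TKO are left out. In TET TKO against WT 15 X-linked reproductive genes rose, Magea8 by 3.74, and 1 fell (median 1.77). Of the germline genes 4 rose, Dazl by 1.07, and 4 fell (median 0.14). Magea3, Magea6 and Rhox4a had too few reads for a TET TKO value, so the X-linked median covers fewer members than the 3.29 for DNMT TKO. Dazl was higher in DNMT TKO than in TET TKO by 3.42 (SE 0.16, adjusted p = 1.59e-05), Magea8 by 4.10 (SE 0.19, adjusted p = 1.53e-06) and Zfp42 by 2.09 (SE 0.06, adjusted p = 1.27e-07). L1Md_A was higher by 1.60 (SE 0.09, adjusted p = 6.48e-13) and stood lower in TET TKO than in WT (−0.90). L1Md_Gf was lower in TET TKO than in WT too (−1.41, means of 37.7 and 99.8 CPM), and L1Md_T stood at 1074 CPM against 2046 CPM there without passing (−0.94, adjusted p = 0.156). L1Md_Gf was lower in DNMT TKO than in TET TKO by 1.10 on the log2 scale, and the L1Md_T difference of −1.21 did not pass (adjusted p = 0.0514). RLTR45-int was higher in TET TKO (1032 CPM on average) than in DNMT TKO (422 CPM, log2 −1.26). Gm14443 rose in both mutants (6.63 and 6.40) and did not pass between them (0.21, SE 0.08), and Gm13394 fell in both (−6.34 and −5.60). Of the other largest falls, Apoa2 (−7.95), Mid1 (−3.74) and Gm6673 (−3.20) also fell in TET TKO. Trim12a, 1190002H23Rik, Sema5a, Gm14567, 2410018L13Rik and 5730507C01Rik did not pass there. Of the integrants with the largest changes, the Lx3B fragment rose in TET TKO too (11.47) and did not pass between the mutants (0.28, adjusted p = 0.261). The L1Md_T copy on chromosome 4 fell there (−6.48), also without passing between them (−3.34, adjusted p = 0.0599). The L1_Mur1 (−2.93) and MER58A (−2.60) copies fell there but passed as lower in DNMT TKO. The others did not pass in TET TKO or lacked reads for a value, and all differed between the mutants. Of the imprinted genes 4 rose and 10 fell in TET TKO, Peg10 by 2.61 and Nnat by 1.98, while Igf2 rose by 1.38. Xist was lower there by 2.38.

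The lines also differed by whole chromosomes. Among genes with at least 60 reads the median difference was 0.33 on chromosome 11, −0.26 on chromosome 6 and −0.14 on chromosome 8, and between −0.05 and 0.09 on the other autosomes and X. With shKap1 the same 3 chromosomes stood at 0.37, −0.32 and −0.09, while in TET TKO they stood at −0.03, −0.04 and 0.12. The Y chromosome, with 7 such genes, stood at 1.38, at 1.18 with shKap1 and at 1.21 in TET TKO. On chromosome 11, 11.5% of tested genes rose and 4.82% fell, and on chromosome 6, 8.04% and 11.7%. Without the 3 chromosomes 1318 of 16189 genes rose (8.14%) and 1163 fell (7.18%), and 3873 (4.24%) and 6411 (7.02%) integrants. The Peg10 domain lies on chromosome 6 and Suz12 and Cbx8 on chromosome 11, and their differences include the chromosome's share.

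**Figure D5:**
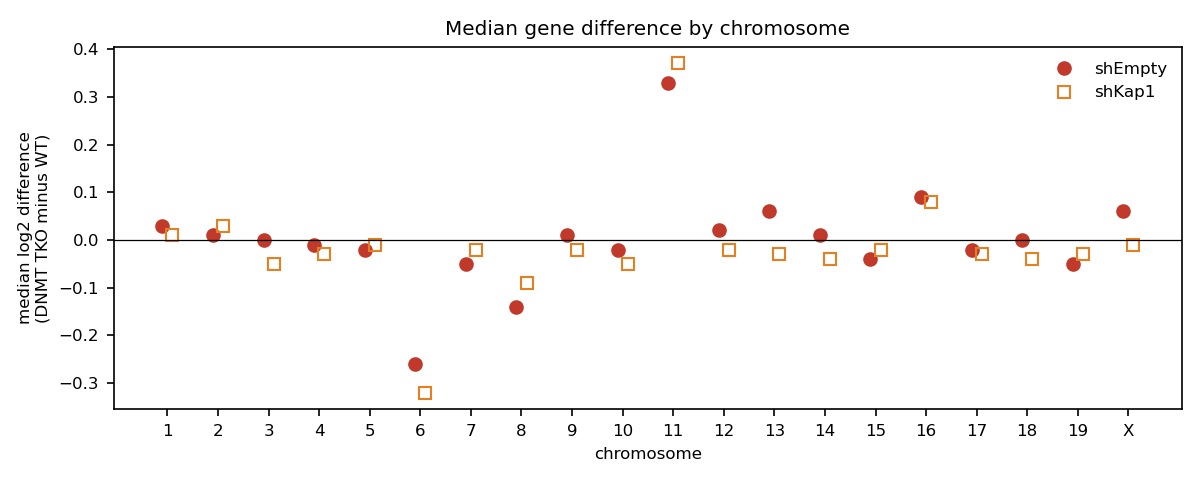
Median log2 difference (DNMT TKO minus WT) of genes with at least 60 reads on each autosome and X, with shEmpty (filled red circles) and with shKap1 (open squares). Chromosome 11 stands above the others (0.33 and 0.37) and chromosome 6 below (−0.26 and −0.32) in both sets of libraries.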

How the data were processed

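Gene counts and TE counts were used as deposited. The authors aligned stranded 100-base single reads to mm9 with HISAT2, kept uniquely mapped reads, and counted them per gene (featureCounts) and per integrant of a RepeatMasker track whose ERV internal parts were merged with LTRs within 400 bp (bedtools multicov), per the paper's methods and the labels, which name featureCounts 1.5.1 and bedtools 2.25. The count headers name alignment files in TopHat's style and another featureCounts release, so the aligner and version behind these counts are uncertain. The authors' region files were deposited as read counts over ChIP-seq region sets (KAP1, H3K9me3, H3K4me3, H3K27me3), and only their coordinates were used. Peak lists and coverage of other assays were not used here.

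Groups came from the labels. The main test was edgeR 4.0.16 (R 4.3.3; quasi-likelihood, robust, TMM) on the 6 shEmpty libraries, over features with at least 6 reads in all, with TE library sizes from gene counts, and Benjamini-Hochberg adjustment over all features tested. A call needed an adjusted p under 0.05 and 2-fold. SE is the log2 change over the root of F. The other contrasts (shKap1, interaction, TET TKO) were fitted alike. Named genes were the 10 largest rises and falls with 500 reads and no overlap of groups, up to 6 called and the first 3 tested members of each of 21 lists, the 5 largest rises and falls of integrants with 200 reads, and families of a fixed list; other list members and the LTR and Y-linked examples were chosen after their values were seen. A called list member is not reported here. Members and lists were chosen with earlier results of these data known. Same-numbered libraries deviated together over genes (r = 0.467, 0.26 and 0.274) and less over TEs (0.196, 0.103 and 0.082), so over genes every same-numbered pair passed the limit of 0.1 set for pairing, although DNMT TKO 2 correlated more with WT 3 (0.366) than with WT 2, and numbers 2 and 3 are not clearly separated; the labels do not state a pairing, and the fit with a replicate block was an alternative. DESeq2 1.42.0, limma 3.58.1 (voom), RLE factors, other filters, all 16 RNA libraries, TE totals and leaving out each library were the others, and leaving out chromosomes 6, 8 and 11 was added after seeing the data. Promoters were 250 bases before to 50 after gene starts in the mm9 genome and annotation (GENCODE M1). Of 37991 genes, 37205 matched that annotation by ID. On simulated counts the test was checked before use, with changes planted only in features with many reads. Called integrants had a median of 28 reads (higher) and 30 reads (lower), so the check does not cover most of them. P-values measure the spread between these libraries of 1 line per genotype.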

Additional observations from a re-analysis of the deposited data

Results flagged for a closer look

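Each value below is the difference between 2 log2 contrasts of DNMT TKO and WT, the one with shKap1 minus the one with shEmpty, for named features whose interaction of genotype and hairpin passed edgeR's quasi-likelihood test with Benjamini-Hochberg adjustment at 2-fold. Trim28 RNA differed in the same way (1.28), which is to say that the hairpin left more of it in DNMT TKO.

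Genes and integrants named for the largest shEmpty changes were picked on values that the interaction uses again, which favours smaller differences with shKap1. Of all genes that passed with shEmpty (1653 higher and 1454 lower), 620 had an interaction that passed. Of the 10 genes named for the largest falls, 5 lay closer to WT with shKap1, by 6.21 for 1190002H23Rik, 2.34 for Apoa2, 1.79 for Gm6673, 1.73 for Sema5a and 1.60 for 5730507C01Rik. For 1190002H23Rik the WT level itself was lower with shKap1 (1.05 CPM on average against 8.78 CPM). Pmaip1 (3.09) and Igf2 (1.59) also fell less. The difference between genotypes was larger with shKap1 for Pramel6 (4.63), Lgals3bp (2.26), Rhox1 (1.83), Xaf1 (1.49) and Gsc (1.40). Pramel6 was lower with shKap1 in both genotypes, at 0.288 CPM on average against 16.9 CPM in WT and 27.2 CPM against 62.8 CPM in DNMT TKO. Mean levels of Xaf1 and Gsc were also lower with shKap1 in both genotypes, and those of Lgals3bp and Rhox1 lower in WT and higher in DNMT TKO. Col1a1 (2.37), Prdm14 (2.26), Cd34 (1.65) and Sycp3 (1.11) did not pass with shEmpty but differed in this test. Rises that were smaller, absent or turned with shKap1 were Gm14443 (−4.62), Hoxb2 (−4.52), St8sia5 (−2.81), Cdx2 (−2.37), Usp26 (−1.69), T (−1.25), Zfp42 (−1.17) and Nes (−1.08). Tet3 (−1.67) and Meg3 (−1.48), which did not pass with shEmpty, differed downwards.

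Among TE families that fell with shEmpty, L1Md_Gf (2.07), L1Md_T (1.90), RLTR50B (2.27), MMVL30-int (1.11) and MYSERV6-int (1.09) differed less from WT with shKap1, and IAPLTR1a_Mm (3.67) was no longer lower (−3.43 with shEmpty, 0.20 with shKap1). Among the other families IAPEY3-int (1.26), RLTRETN_Mm (1.16) and IAPLTR2_Mm (1.06) differed upwards. RLTR10C (−1.79) rose less, and RLTR4_MM-int (−1.65) went from 1.14 with shEmpty to −0.55 with shKap1.

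Single integrants that differed upwards were the L1Md_T copy on chromosome 4 (6.45), an MMVL30-int copy on chromosome 4 (2.83) and an RLTR50B copy on chromosome 6 (1.95). Those that differed downwards were a MURVY-int copy on an unplaced Y scaffold (−7.26), the L1Md_A copy on chromosome 5 (−6.97), the MTA_Mm-int copy on chromosome 1 (−4.84), an RLTR4_MM-int copy on chromosome 10 (−4.00), an IAPLTR2a copy on chromosome 11 (−2.65), an L1Md_Gf fragment on chromosome 15 (−1.91), the IAPEy-int copy on chromosome 9 (−1.73) and an LTRIS2 copy on chromosome 5 (−1.25).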

How the results depend on the processing

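Gene counts stayed within 1.5 times of 1653 higher and 1454 lower under each tool, scaling and filter tried, and ran from 1360 to 1769 higher and from 1205 to 1534 lower when 1 library was left out; without the fold limit 4097 were higher and 3880 lower. Integrant counts depended more on the tool. The 4751 higher and 8194 lower became 1804 and 3306 with DESeq2, 1661 and 2987 with filterByExpr, which tests fewer of them, and 2846 and 5225 with no filter; leaving out a library gave 3159 (without WT shEmpty replicate 3) to 4240 higher and 5717 to 7483 lower. Families that changed numbered 71 to 83 when a library was left out. Under DESeq2 the integrant counts were 7056 for DNMT TKO against WT with shKap1, 1111 for the interaction, 1631 for TET TKO against WT (2889 with voom) and 2272 for DNMT TKO against TET TKO. With the replicate block 1785 genes rose and 1552 fell, 3868 and 6835 integrants and 38 and 40 families, and beside the calls given in the report it changed none of the named genes and families. Of 86 named genes that passed, 71 kept their side under every alternative and 15 lost it under at least 1, and none turned. Calls lost to another tool or scaling were those of Hand1 (2.26 with DESeq2, 2.07 with all 16 libraries), Hoxa11 (3.41) and Mx2 (2.81) with DESeq2, Hoxb2 (2.71 with DESeq2, 2.57 with all 16 libraries, 2.16 with voom), Slc22a3 with voom and IAPLTR2a (1.00 with DESeq2, RLE and the block, 0.97 with all 16 libraries). Signs turned only for values near 0 that had not passed: Ddx58 (−0.87 to 0.24 with a library left out), Mavs (−0.11 to 0.05 likewise), Rlim (0.01 with voom, 0.00 with the block, −0.13 to 0.16 likewise), Zfp352 (−0.08 with voom, −0.33 to 0.46 likewise), B2_Mm1a (0.08 with TE totals, −0.08 to 0.07 likewise), IAPEz-int (0.01 with TE totals, −0.38 to 0.10 likewise), IAPLTR2_Mm (−0.02 with all 16 libraries, −0.03 to 0.05 likewise), MERVL-int (−0.04 to 0.55 likewise), MMERVK10C-int (0.00 with DESeq2, −0.01 with RLE, −0.03 with all libraries, −0.04 to 0.05 likewise) and RLTR6_Mm (0.00 with DESeq2, −0.02 with all libraries and with voom, −0.17 to 0.24 likewise). Calls lost when a single library was left out, each with that library's genotype and replicate number and the log2 difference without it, were those of Cbx8 (WT 1, 0.90), ERVB4_2-I_MM-int (DNMT 2 or 3 and WT 2, 2.25 to 2.40), Hand1 (DNMT 2 or 3 and WT 1 or 2 or 3, 1.72 to 2.40), Hoxa10 (DNMT 2, 1.91), Hoxa11 (DNMT 1 or 2 and WT 1 or 2 or 3, 2.57 to 4.91), Hoxb2 (DNMT 2 or 3 and WT 1 or 2 or 3, 2.20 to 2.88), Hoxd10 (WT 2, 1.69), IAPLTR2a (DNMT 1 and WT 2 or 3, 0.89 to 0.99), LTRIS2 (WT 1, 0.99), the MuLV-int copy on chromosome 5 (DNMT 3, −7.89), Mx2 (DNMT 3 and WT 1 or 2 or 3, 1.76 to 3.37), Oasl2 (DNMT 2 or 3 and WT 3, 1.77 to 2.23), Phf19 (DNMT 1 or 2 and WT 1, −0.99 to −0.97), RLTR44-int (WT 1, 0.96), Slc22a3 (DNMT 1 or 2 or 3 and WT 2 or 3, −6.22 to −3.84), Sp110 (DNMT 3, 1.40), Tsix (DNMT 1 and WT 1, 0.89 to 0.97) and Zic1 (WT 2, −1.83). The cause of these shifts was not tested. Counts of single integrants were low, which limits the precision of their differences.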
